A study of Mus musculus with 38 samples.

Results

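CTCF sites that lie on base-unpairing regions (BURs) are described here, and are called CTCF-BUR sites. They were chosen as the CTCF peaks of skin on chromosomes 1 to 19 and X that shared at least 1 bp with a peak of the BUR reference map. Of 31203 skin CTCF peaks on these chromosomes, 1212 met this rule, and they touched 1211 of the 232068 BURs there. The share of 3.88% and all values of the CTCF peaks and BURs that chose the sites are given as a description, with no test.

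The study compared urea ChIP-seq, which spins crosslinked chromatin through urea and thereby strips proteins not fixed to DNA before immunoprecipitation, with standard ChIP-seq of sonicated nuclei. All cells came from *Satb1*+/+ C57BL/6 mice. CTCF urea lists were made from epidermal keratinocytes of skin and from thymocytes, with 1 list each, and SATB1 urea lists from brain, thymocytes and skin, with 2 lists each. SATB1 standard lists came from thymocytes, replicate 1 with the Abcam antibody ab109122 and replicate 2 with the 1583D antibody that was used for all SATB1 urea lists. The BUR reference map (1 list) was made in vitro, by letting recombinant his-tagged SATB1 bind sonicated, purified thymocyte DNA, so it contains no chromatin and no cell type of its own.

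The labels do not give 1 age for each tissue. Skin and thymus are labelled P13, the protocol text of the skin samples says P5, and the titles of the thymocyte CTCF sample and of standard replicate 1 say 6 weeks. The brain samples are labelled 5 and 6 weeks, whereas their protocol text says P13. Both brain samples carry the same experiment code and differ in the number of cycles given in the title, and although the study's reporting checklist calls its replicates cells of different animals, the labels tie no list to an animal, so part of the spread between replicates may be technical. Lists held between 10611 (skin SATB1 replicate 2) and 117870 peaks (brain SATB1 replicate 1) on these chromosomes. They hold no read counts, so the depth behind a peak is unknown. No expression was measured, so the labelled cell types could not be checked against marker genes.

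CTCF is an architectural protein with an array of zinc fingers that reads a long, GC-containing DNA motif and stops cohesin as it extrudes chromatin loops. It occupies many of the same sites in most cell types. SATB1 is a nuclear protein, abundant in thymocytes, that binds AT-rich DNA in which one strand lacks C or lacks G, and which unpairs easily under torsional stress. These are the BURs. A CTCF-BUR site can therefore place a GC-containing motif and an AT-rich stretch within a short distance on the same DNA.

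Sequences of 4 CTCF-BUR sites are given here. Each is the first site, in its ranking, that held the CTCF core and had core and BUR summit within 300 bases. The core searched for is CCA, then AG after 2 free bases, then GGC after 2 further free bases, on either strand, and it is in capitals. All sequences were read from NCBIM37 (mm9), plus strand, 5′ to 3′. At *Ddo* the core lies on the minus strand, so the capitals show its reverse complement. The *Clstn3* site, in an intron, was taken from the ranking by thymocyte urea SATB1.
*Clstn3* chr6:124398627-124398926: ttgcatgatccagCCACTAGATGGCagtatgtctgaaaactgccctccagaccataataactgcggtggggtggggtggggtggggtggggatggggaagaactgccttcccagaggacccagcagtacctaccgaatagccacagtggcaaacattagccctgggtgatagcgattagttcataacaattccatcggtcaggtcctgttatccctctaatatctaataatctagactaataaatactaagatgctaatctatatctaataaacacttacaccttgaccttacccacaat
The *Copz2* site, in intergenic DNA, was taken from the ranking of sites with a SATB1 peak in all 6 urea lists.
*Copz2* chr11:96728406-96728677: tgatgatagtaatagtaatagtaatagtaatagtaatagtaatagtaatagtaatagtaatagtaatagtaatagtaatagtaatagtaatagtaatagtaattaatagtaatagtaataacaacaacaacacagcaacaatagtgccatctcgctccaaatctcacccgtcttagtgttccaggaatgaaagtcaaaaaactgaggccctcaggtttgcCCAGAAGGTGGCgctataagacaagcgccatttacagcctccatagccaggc
The *Ddo* site lies within 1000 bp of a protein-coding start site.
*Ddo* chr10:40348971-40349201: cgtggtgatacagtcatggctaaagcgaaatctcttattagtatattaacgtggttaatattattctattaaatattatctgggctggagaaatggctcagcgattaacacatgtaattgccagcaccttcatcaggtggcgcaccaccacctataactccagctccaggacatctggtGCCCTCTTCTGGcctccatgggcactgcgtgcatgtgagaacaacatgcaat
The *Prpf4b* site, in intergenic DNA, had its CTCF and BUR summits at the same base, and words of its summit occurred at a median of 13 places in the genome.
*Prpf4b* chr13:34926661-34926808: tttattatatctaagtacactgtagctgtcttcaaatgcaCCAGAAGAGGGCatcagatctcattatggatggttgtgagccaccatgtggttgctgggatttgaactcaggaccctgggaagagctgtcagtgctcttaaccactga
In the *Clstn3* and *Copz2* sequences the BUR summit fell 244 and 201 bp from the CTCF summit, in the AT-rich stretch at the opposite end from the core.

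CTCF and BUR summits were usually apart (the histogram of summit distances). The median distance was 233 bp and its interquartile range was 135 to 337 bp. A separate group of 165 sites (13.6%) had both summits within 49 bp, while only 69 (5.69%) were 50 to 99 bp apart and 324 (26.7%) were at least 200 but under 300 bp apart. CTCF peaks and BURs shared a median of 162 bp. The CTCF summit was inside a BUR at 594 sites and a BUR summit inside the CTCF peak at 458. A single BUR was touched by 1194 sites and 2 BURs by 18. Of the sites that only just met the rule, 77 shared 20 bp or less, with a median CTCF fold enrichment of 4.80 and an AT content of 55.9%. The 59 peaks that missed a BUR by less than 20 bp had medians of 5.89 and 57.2%.

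**Figure D1:**
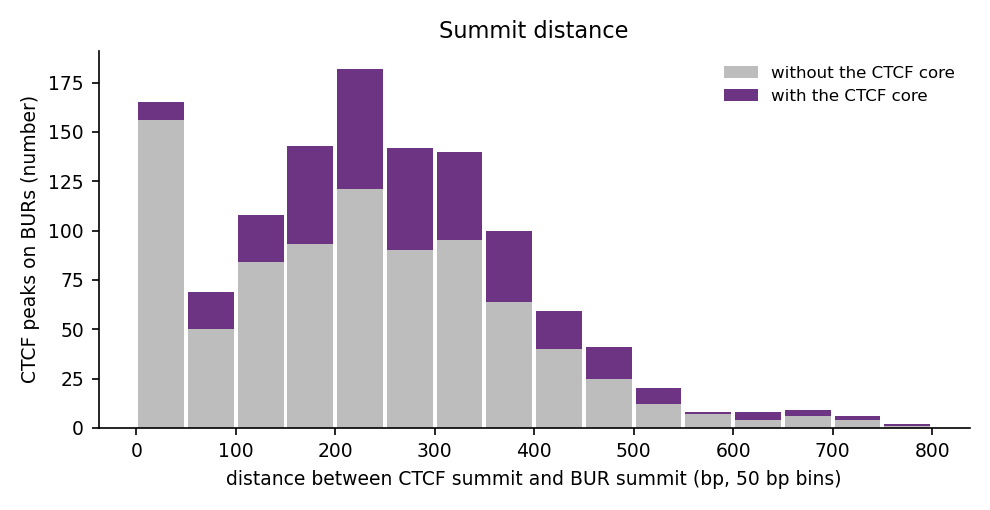
Number of CTCF-BUR sites (y axis) by distance between the CTCF summit and the nearest overlapping BUR summit (x axis, bp, bins of 50 bp), with sites holding the CTCF core within 100 bp of the summit in purple and the others in grey; 10 sites beyond 800 bp are not drawn. The first bin held 165 sites, 9 of them with the core, and a second, broad maximum lay at 200 to 249 bp.

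The sites with nearly coincident summits differed from the rest in several measures the rule did not use. Among the 165 sites with summits within 49 bp, 9 (5.45%) held the CTCF core, against 323 of the 978 sites at 100 bp or more (33.0%). A thymocyte CTCF peak was present at 26.7% of the former and 47.9% of the latter. Summit words occurred more than once in the genome at 28.5% and 6.95%. A skin SATB1 peak was present at 63.6% and 66.7% of the close sites in replicates 1 and 2, and at 14.7% and 13.8% of those at 100 bp or more. In brain the corresponding shares were 25.5% and 26.1% for the close sites and 32.6% and 29.8% for the others. In thymocytes they were 23.6% and 22.4% for the close sites and 16.4% and 16.3% for the others. By these shares the close sites were the more often occupied ones in skin and thymocytes, and the less often occupied ones in brain. However, 24 of the 165 close sites lay in regions where all 11 lists had a peak, against 25 of the 978 others. Such sites are occupied in every list by definition. With these sites subtracted, the order in thymocytes turned round, and the close sites were the less often occupied ones in both lists. The order in skin and brain stayed.

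The CTCF peaks on BURs had a median fold enrichment (signal at the summit over the local background, as the peak caller gives it) of 5.89, and other skin CTCF peaks 5.69. The BURs under them had a median of 7.19, and other BURs 5.87. Median CTCF peak length was 396 and 393 bp. These values are part of what chose the sites. The share of skin CTCF peaks lying on BURs ranged from 2.64% on chromosome 15 to 5.90% on chromosome 16. BURs were dense around the sites, with a median of 8 BUR summits within a window of 100 kb, against 4 around other skin CTCF peaks and 14 around other BURs.

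AT content placed the sites between CTCF peaks and BURs. The median over the CTCF peak was 60.2% at CTCF-BUR sites, 52.0% at other skin CTCF peaks and 70.7% at other BURs. Within a site both features kept their own composition. The bases shared by both peaks had a median of 63.9% AT, those of the CTCF peak alone 57.2%, and those of the BUR alone 66.7%, and the BUR-only bases were the richer ones at 828 of the 970 sites where both could be measured (85.4%). The longest stretch free of C or free of G on one strand, a mark of BURs, was taken over each whole peak. Its median was 31 bp in the CTCF peaks on BURs, 25 bp in other skin CTCF peaks and 43 bp in other BURs. The median peak lengths were 396, 393 and 439 bp.

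The profile of AT content showed a dip at the CTCF summit with AT-rich shoulders. Within 40 bp of the summit the mean was 56.0%, and it rose to 62.9% at 230 bp to one side before falling to 58.4% beyond 500 bp. Other skin CTCF peaks had a similar dip to 48.0% but no shoulders, and stayed at 53.7% beyond 500 bp. When all sites were turned so that the BUR summit lay to the right, AT content was 65.0% from 100 to 400 bp on that side and 58.8% on the other. Sites with the CTCF core showed the same shape, with 53.6% at the summit, 66.1% on the BUR side and 58.2% on the other. The summit of a CTCF-BUR site was thus the least AT-rich point of an AT-rich surrounding.

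**Figure D2:**
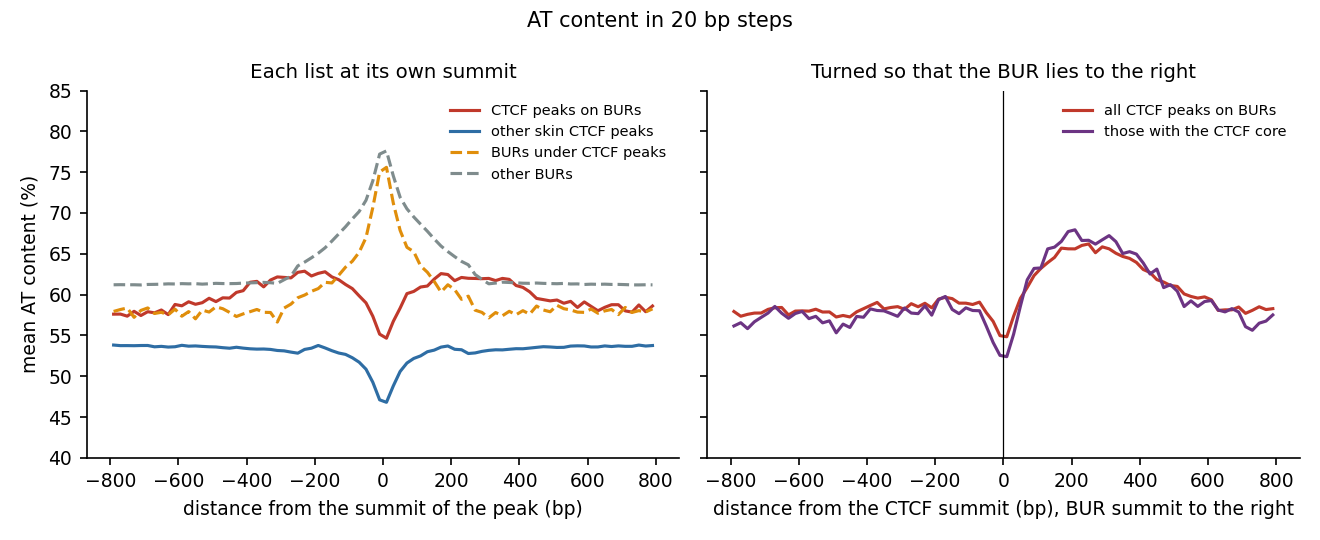
Mean AT content (y axis, %, in steps of 20 bp) against distance from the summit (x axis, bp); at left CTCF peaks at CTCF summits (solid) and BURs at BUR summits (dashed), at right CTCF-BUR sites turned so that the BUR summit lies to the right. CTCF-BUR sites dip to 54.7% near the summit and their AT-rich shoulder lies on the BUR side, reaching 66.2%.

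The CTCF core was present in the 200 bp around the summit at 351 sites (29.0%, 95% Wilson interval 26.5 to 31.6%, which covers counting error only and takes peaks as independent). Over all skin CTCF peaks the share was 32.7% and at the summits of BURs 0.868%. The core lay close to the CTCF summit, at a median of 22 bp, and at a median of 272 bp from the BUR summit. It was nearer to the CTCF summit at 347 of 351 sites (98.9%), and it lay inside the BUR at 110 (31.3%). Among 346 sites with a single core, the BUR summit followed the core, read in the direction of its letters, at 149 and preceded it at 197.

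A thymocyte CTCF peak overlapped 534 of the 1212 sites (44.1%, interval 41.3 to 46.9%), whereas the share over all skin CTCF peaks was 53.7%. CTCF had 1 list in each tissue, so this difference has no replicate spread and was not tested. The share was lower than that of other skin CTCF peaks in every range of CTCF fold enrichment: 33.0% against 40.0% from 4 to 6, 60.1% against 71.3% from 6 to 8, and 74.9% against 85.6% from 8 to 12. At a fold enrichment of 12 or more it was 38.7% against 60.3%. In 2 other subsets the order was the opposite: with skin SATB1 peaks in both lists 41.1% recurred against 10.3%, and with multi-copy summits 25.8% against 10.5%. However, 50 recurrent sites lay in regions where all 11 lists had a peak, so they recur by definition. They made up 25 of the 32 recurrent multi-copy sites. With them subtracted, the multi-copy share fell below that of other skin CTCF peaks. The share with skin SATB1 peaks fell too but stayed the higher one. Recurrent sites had a median skin fold enrichment of 7.10 and the others 4.95. At sites with the core 67.5% recurred (237 of 351) and without it 34.5% (297 of 861). At recurrent sites the thymocyte CTCF summit lay a median of 29 bp from the skin CTCF summit and 260 bp from the BUR summit, so the CTCF summit stood at the same place in both tissues. By the same rule, 520 of 20219 thymocyte CTCF peaks (2.57%) lay on BURs, and 426 of these overlapped a CTCF-BUR site of skin.

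SATB1 occupied CTCF-BUR sites far more often than other CTCF sites in all 6 urea lists. A site was called occupied where it shared at least 1 bp with a SATB1 peak. In brain 31.5% and 28.9% of the sites were occupied in replicates 1 and 2, against 2.17% and 1.95% of all skin CTCF peaks. In thymocytes 17.4% and 17.2% were occupied, against 1.14% and 1.07% of all. In skin 21.9% and 21.5% were occupied, against 3.98% and 3.59% of all. Replicates differed by less than tissues did, and no list of one tissue overlapped those of another. Compared with other skin CTCF peaks alone, the mean log2 ratio of the shares was 4.38 (6 of 6 lists higher, exact two-sided sign-flip test over lists, p = 0.0312, the smallest that 6 lists can give, Benjamini-Hochberg adjusted p = 0.0952 over 10 tests). The ratio was 32.0 and 33.6 in brain, 36.3 and 41.2 in thymocytes, and 6.74 and 7.49 in skin. The lists of a tissue are not independent of each other, so these p-values describe the lists. By rule the sites touch a BUR and the other skin CTCF peaks touch none. Of the peaks in each urea SATB1 list, 72.8% to 79.6% lay on BURs. The rule itself thus favours a higher share at the sites, and the test decides nothing beyond that.

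**Figure D3:**
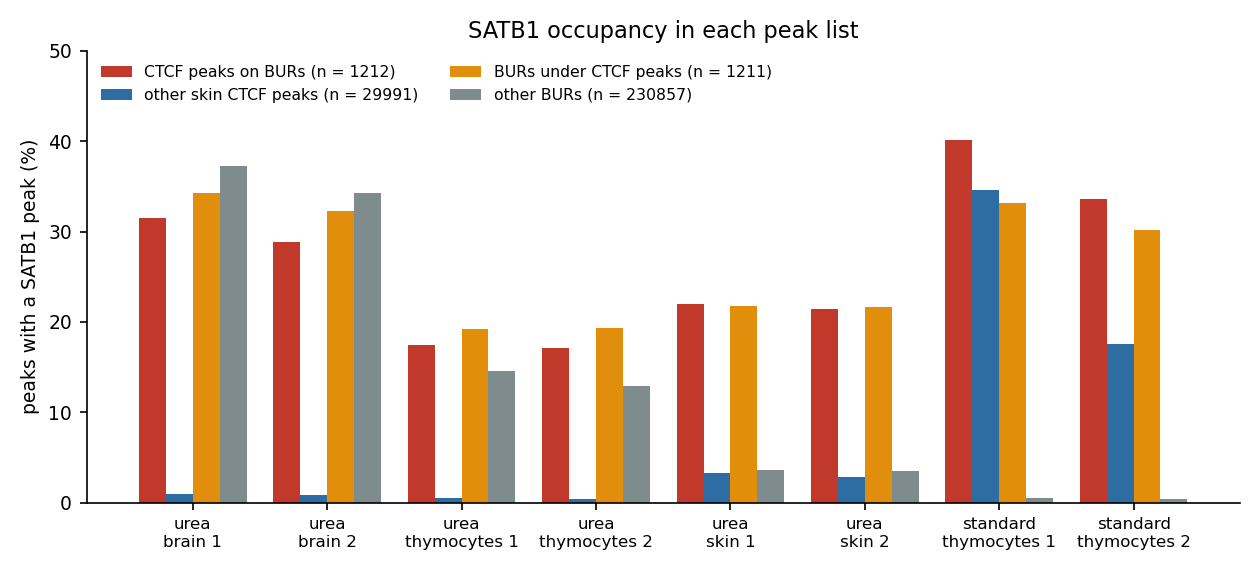
Percentage of peaks that share at least 1 bp with a SATB1 peak (y axis) in each of 8 SATB1 lists (x axis, tissue and replicate), for CTCF peaks on BURs, other skin CTCF peaks, BURs under CTCF peaks and other BURs; 1 bar is 1 list, with no error. In skin the BURs under CTCF peaks stand at 21.8% and 21.6% and other BURs at 3.62% and 3.54%, whereas in brain other BURs are slightly higher.

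The order of tissues depended on the length of the lists and on which sites were counted. Mean occupancy was 30.2% ± 1.87 (SD, n = 2 lists) in brain, 21.7% ± 0.350 in skin and 17.3% ± 0.175 in thymocytes (exact permutation test over tissues, p = 0.0667, the smallest that 3 tissues with 2 lists each can give, adjusted p = 0.0952). With every list cut to its 10611 strongest peaks, skin was highest at 21.5%, thymocytes had 7.63% and brain 6.27% (exact permutation test, p = 0.0667 again). With full lists, skin was also highest where an overlap of 50% of the shorter peak was required (36.8%, with 33.7% in brain and 24.3% in thymocytes) and where the CTCF summit had to lie inside the BUR (36.7%, 31.4% and 22.0%). Without the top 1% of peaks the order was brain, thymocytes and skin (29.8%, 16.3% and 16.2%). Skin SATB1 peaks and skin CTCF peaks come from 1 tissue, the others do not. The skin value also rested most on sites described below. Without sites of multi-copy sequence, in *Satb1*, with telomeric or satellite words, or in regions shared by all 11 lists, 967 sites remained, with means of 12.6% in skin, 14.6% in thymocytes and 30.6% in brain.

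Set beside other BURs, the BURs under CTCF peaks were occupied about as often in brain, somewhat more often in thymocytes, and several times more often in skin. The shares were 34.3% and 32.3% against 37.2% and 34.2% in brain, 19.2% and 19.3% against 14.6% and 12.9% in thymocytes, and 21.8% and 21.6% against 3.62% and 3.54% in skin. Over all BURs the lists marked 37.2% and 34.2%, 14.6% and 12.9%, and 3.71% and 3.64%. The fold was 6.03 and 6.10 in skin and 0.921 and 0.943 in brain. Over 6 lists the mean log2 ratio was 1.00 (4 of 6 lists higher, exact two-sided sign-flip test, p = 0.125, adjusted p = 0.133). The difference between tissues in this ratio reached the smallest p possible (exact permutation test, p = 0.0667, adjusted p = 0.0952). BURs under CTCF peaks had the higher fold enrichment, which is part of what chose them, and its part in these ratios was not tested. In skin replicate 1 the shares were 25.7% and 0.778% for BURs with a fold enrichment below 4.69, 17.3% and 2.46% between 4.69 and 7.61, and 22.9% and 7.62% above.

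Skin SATB1 marked sites without the CTCF core more often than sites with it. In skin 28.6% and 28.0% of the sites without the core were occupied and 5.70% and 5.41% of those with it. In thymocytes these shares were 19.4% and 18.2% against 12.5% and 14.5%, and in brain 32.3% and 29.8% against 29.6% and 26.5%. All 6 lists had the lower share at core sites (exact two-sided sign-flip test, mean log2 ratio -0.99, p = 0.0312, adjusted p = 0.0952), and the fold was 0.199 and 0.193 in skin against 0.918 and 0.888 in brain. However, 47 of the 861 sites without the core lay in regions shared by all 11 lists, against 3 of the 351 with it. Such sites are occupied in every list by definition. With these sites subtracted, the share at core sites was no longer the lower one in either brain list or in thymocyte replicate 2. It stayed lower in thymocyte replicate 1 and in both skin lists. The test was not repeated without these sites, and its p-value rests on them. Sites in the thymocyte CTCF list were occupied by SATB1 at 26.6% and 26.8% in thymocytes and 40.4% and 37.6% in brain, against 10.2% and 9.59%, and 24.5% and 22.0%, of the other sites. In skin the order was the opposite, with 19.5% and 19.1% against 23.9% and 23.3% (exact two-sided sign-flip test over the 6 lists, p = 0.125, adjusted p = 0.133). The recurrent sites include the 50 sites in regions shared by all 11 lists, which are occupied in every list by definition. Without them the recurrent sites were occupied at 34.3% and 31.2% in brain, at 92 and 93 of 484 sites in thymocytes and 11.2% and 10.7% in skin.

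The summit of SATB1 lay mostly at the BUR in brain and thymocytes, and over all sites mostly at the CTCF summit in skin (the plot of summit positions). Only sites whose CTCF and BUR summits were 100 bp or more apart were used, and of several SATB1 peaks the strongest. In brain 272 of 319 and 251 of 291 SATB1 summits were nearer to the BUR summit (85.3% and 86.3%). In thymocytes these were 125 of 160 and 125 of 159 (78.1% and 78.6%), and in skin 51 of 144 and 46 of 135 (35.4% and 34.1%). The difference between tissues had the smallest p the design allows (exact permutation test, p = 0.0667, adjusted p = 0.0952), and with lists of equal size the shares were 86.3% and 88.5%, 79.0% and 82.8%, and 34.5% and 34.1%. Median distances at these sites were 262 and 244 bp to the CTCF summit and 40 and 37 bp to the BUR summit in brain. In skin they were 16 and 20 bp to the CTCF summit and 164 bp to the BUR summit in both replicates. The few core sites with a skin SATB1 peak did not follow the other skin sites: 15 of 18 and 14 of 18 skin SATB1 summits were nearer to the BUR there. At core sites the tissues were closer, 91.8%, 93.5% and 80.6% in brain, thymocytes and skin (exact permutation test, p = 0.133, adjusted p = 0.133). At sites in the thymocyte CTCF list, skin SATB1 summits were more evenly split. There 30 of 63 and 27 of 62 were nearer to the BUR (47.6% and 43.5%), and brain and thymocytes had means of 83.2% and 75.1%.

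**Figure D4:**
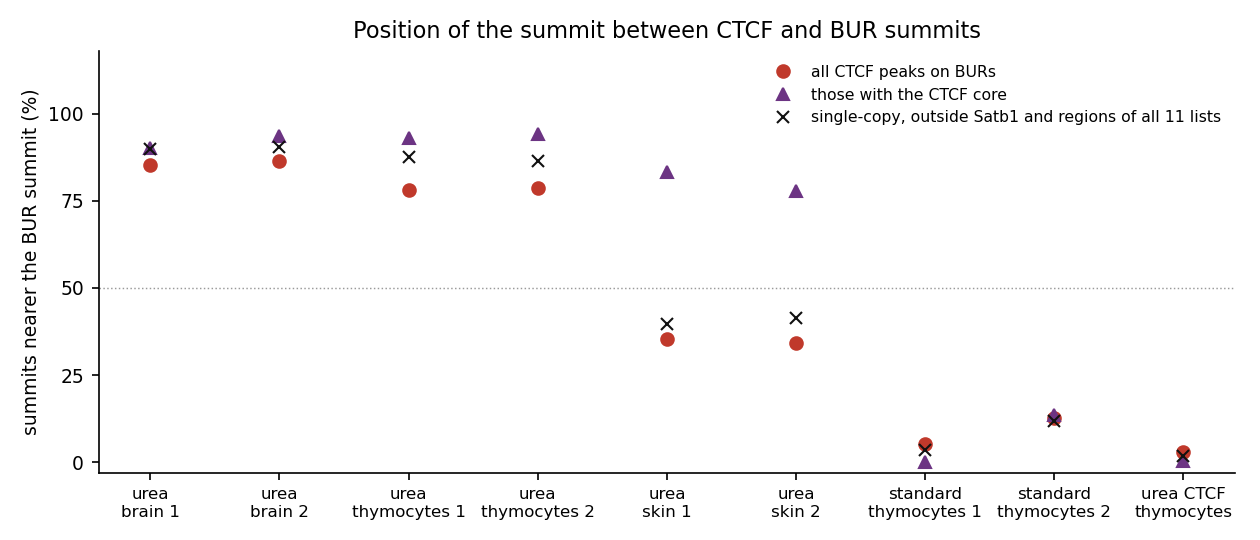
Percentage of summits nearer to the BUR summit than to the CTCF summit (y axis) in each SATB1 list and in the thymocyte CTCF list (x axis), at sites whose CTCF and BUR summits are at least 100 bp apart. Brain and thymocyte urea SATB1 lie above 75%, skin urea SATB1 at 35.4% and 34.1% for all sites and near 80% for core sites, and standard SATB1 and CTCF below 15%.

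The levels followed the positions. Across sites with a peak, the fold enrichment of skin SATB1 went with that of skin CTCF (Spearman rho 0.76 in replicate 1, n = 266, and 0.75 in replicate 2, n = 260), and less with that of the BUR (0.46 and 0.47). In brain rho was 0.14 and 0.10 with CTCF and 0.49 and 0.43 with the BUR. In thymocytes it was 0.27 and 0.28 with CTCF and 0.44 and 0.44 with the BUR. These are descriptions over sites that share lists and samples.

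Standard SATB1 peaks of thymocytes were present at 40.2% of the sites in replicate 1 and 33.6% in replicate 2, against 34.8% and 18.2% of all skin CTCF peaks and 0.649% and 0.521% of all BURs. Their summits stood at the CTCF summit: 20 of 371 and 34 of 268 (5.39% and 12.7%) were nearer to the BUR. The thymocyte CTCF list gave 14 of 468 (2.99%). Within thymocytes, urea SATB1 summits were mostly nearer to the BUR and standard SATB1 summits mostly nearer to the CTCF summit. The 2 standard lists were made with different antibodies, and their difference cannot be told apart from that of replicates.

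By the urea lists that marked them, the sites fell into classes with different properties. No list marked 650 sites (53.6%), whereas 93.6% of all skin CTCF peaks had no SATB1 peak. Brain or thymocytes but not skin marked 277, skin alone 136, all 6 lists 92 (7.59%, against 0.369% of all skin CTCF peaks and 2.86% of all BURs), and 57 had other mixtures. The unmarked sites and those marked in brain or thymocytes were close in median CTCF fold enrichment (5.62 and 5.36), share with the core (35.7% and 34.7%) and thymocyte CTCF (45.4% and 47.7%). Sites marked in skin alone had a median CTCF fold enrichment of 12.0. Only 3 of 136 held the core (2.21%) and 2 (1.47%, interval 0.404 to 5.20%) were in the thymocyte CTCF list. Standard SATB1 lists of thymocytes nevertheless marked 63.2% and 75.7% of them. Of the sites marked in all 6 lists, 50 lay in regions shared by all 11 lists, which fixes their thymocyte CTCF peak, and of the other 42 a thymocyte CTCF peak was present at 24 (57.1%).

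**Figure D5:**
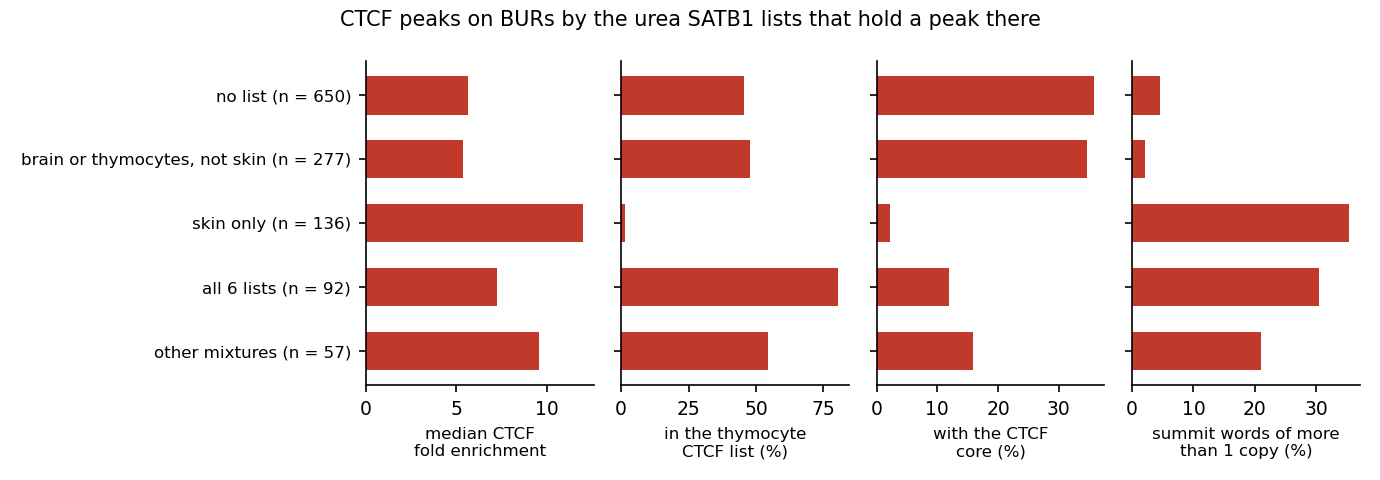
CTCF-BUR sites grouped by the urea SATB1 lists with a peak there (rows), with median CTCF fold enrichment, percentage in the thymocyte CTCF list, percentage with the CTCF core, and percentage whose summit words occur more than once in the genome (4 panels, each axis from 0). Sites marked in skin alone have the highest CTCF fold enrichment (12.0), almost no core (2.21%) and almost no thymocyte CTCF (1.47%).

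Repeated DNA was more frequent at CTCF-BUR sites than at other skin CTCF peaks. The words of 31 bases around the summit occurred more than once in the genome, by the median, at 124 sites (10.2%, against 4.32% of all skin CTCF peaks). At 20 sites (1.65%, against 0.506%) the 200 bp around the summit held at least 3 consecutive units of the telomeric repeat TTAGGG, and at 41 (3.38%, against 0.266%) the word GGAATATGG, found in mouse satellite DNA. Skin SATB1 peaks marked 19 of the 20 telomeric sites in both replicates, and no brain replicate 1 or thymocyte urea list marked any. Their median CTCF fold enrichment was 28.6, against 15.2 at the 138 other skin CTCF peaks with these units, and 1 of 20 was in the thymocyte CTCF list, whereas both standard SATB1 lists marked all 20. The other 138 telomeric CTCF peaks were similar, with skin SATB1 at 81.2% and 79.7% and thymocyte CTCF at 0.725%. The satellite sites were marked by skin SATB1 at 38 of 41 in both replicates. Brain marked 23 and 24 of them, thymocyte urea lists 23 and 20, and standard lists 39 and 40. Regions shared by all 11 lists held 18 of the 41. At the 42 other skin CTCF peaks with the word, skin SATB1 stood at 11.9% and 9.52%. The median CTCF fold enrichment of the 41 satellite sites was low, at 3.59, and the highest was 41.1. Their median −log10 q-value was nonetheless 3568, against 21.9 over all CTCF-BUR sites. Of the satellite sites, 23 lay in chr9:3000001-3100000, among predicted genes such as Gm10721 and Gm11168. All 25 sites of that window had multi-copy summits. Reads that match several places were discarded by the authors, and how this bears on the signal at such sites was not tested. One satellite site, chosen after its values were seen, is shown with the satellite word in capitals.
*Mdga2* chr12:68160169-68160368: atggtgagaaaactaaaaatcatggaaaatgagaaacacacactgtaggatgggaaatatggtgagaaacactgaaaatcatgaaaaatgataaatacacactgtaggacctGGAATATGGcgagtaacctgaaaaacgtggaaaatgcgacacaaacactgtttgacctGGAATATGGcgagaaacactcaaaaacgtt
Outside regions shared by all 11 lists, *Mdga2* was the strongest satellite CTCF peak but for 1.

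The coding exons of *Satb1* itself carried 10 CTCF-BUR sites. The gene spans chr17:51875512-51972615, and the sites overlapped 10 of its 11 separate coding blocks. Their CTCF fold enrichment ranged from 5.47 to 32.3 and their BUR fold enrichment from 3.88 to 15.2. Skin SATB1 peaks covered all 10 in both replicates, at 5.49 to 29.6 and 5.61 to 29.1. None was in the thymocyte CTCF list, none held the CTCF core, and the brain lists marked none, while both thymocyte urea lists marked the same 1 (6.02 and 5.47). Their AT content, at most 60.4%, was below the 70.7% median of BURs. All 10 skin SATB1 peaks of the gene in each replicate lay on coding exons, as did 10 of the 11 skin CTCF peaks and 10 of the 19 BURs, although the coding exons make up 2388 of 97104 bp. Their −log10 q-values, 866 to 5609, all ranked among the highest 65 of the 1212 sites. Without the sites nearest to *Satb1*, mean skin occupancy was 21.0% in place of 21.7%. Peaks that follow the coding exons of a gene are given here as measured, and their origin was not tested.

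Relative to genes, 54 sites (4.46%, interval 3.43 to 5.77%) lay within 1000 bp of a protein-coding start site, against 11.7% of all skin CTCF peaks and 1.35% of all BURs. Without multi-copy sites the share was 2.85%. Introns held 33.7% of the sites and intergenic DNA 58.9%, against 35.6% and 47.4% of other skin CTCF peaks. The surroundings were poor in genes, with a median of 7 protein-coding genes within 500 kb on either side, compared with 11 for other skin CTCF peaks and 3 for other BURs.

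Sites are named by the nearest protein-coding gene, which can be far away and need not be regulated by the site. Of all skin CTCF peaks, 0.535% had an olfactory receptor gene as their nearest gene, and of the CTCF-BUR sites 16 (1.32%), of which 5 were at *Olfr161*, 4 of these with multi-copy summits. Vomeronasal receptor genes had 10 sites (0.825% against 0.183%) and the long genes of neuronal adhesion and synapse assembly 27 (2.23% against 1.13%), in 20 genes among which were *Cntnap2*, *Robo2* and *Dscam*. Neurotransmitter receptor genes had 12 (0.990% against 0.577%), ion channel genes 16 (1.32% against 1.35%) and *Zfp* zinc finger genes 13 (1.07% against 1.30%). T-cell transcription factors had 13 sites (1.07% against 0.250%). All but 3 of them were those of *Satb1*, and the others were at *Tox* and *Id3*. Clustered protocadherin, T-cell receptor and MHC genes had none of 12, 1 and 34 skin CTCF peaks. Imprinted genes had 3 of 81. Keratin genes had 1 of 37 (*Krt28*), epidermal differentiation complex genes 1 of 42 (*Lce3a*), Hox genes 1 of 23 (*Hoxc8*) and beta-globin genes 1 of 1 (*Hbb-b2*). Of all skin CTCF peaks, 3.88% were CTCF-BUR sites. The only entry among immunoglobulin symbols was *Ighmbp2*, which is not an immunoglobulin gene. These are counts in 1 list and were not tested.

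The strongest CTCF-BUR sites shared with thymocytes were not core sites. Outside regions shared by all 11 lists, the 6 highest skin CTCF fold enrichments among the 484 recurrent sites were at *Kpna1* (29.9; an importin for nuclear transport), *Mdga2* (27.7; a neuronal adhesion modulator), *Kctd16* (24.7; an auxiliary subunit of GABA-B receptors), *Galr1* (20.8; a galanin receptor), *Pum2* (20.2; an RNA-binding repressor of translation) and *Zfp746* (19.2). In thymocyte CTCF these sites had 12.6, 6.10, 24.6, 12.8, 15.6 and 7.83. None held the core, and all 6 had skin SATB1 peaks in both replicates, for example 16.6 and 16.9 at *Kpna1* and 22.7 and 23.5 at *Mdga2*. The *Kpna1* site (chr16:35981623-35982029) lies in an intron, 11 bp from the BUR summit.

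The strongest thymocyte urea SATB1 peaks lay at sites with a modest CTCF peak. The highest thymocyte urea SATB1 level was in intergenic DNA near *Nanog* (chr6:122647552-122647766), a pluripotency gene, with 35.9 and 35.2 in thymocytes, 28.4 and 29.0 in brain and 35.1 and 35.4 in skin. The CTCF fold enrichment there was 4.15, the BUR fold enrichment 14.2 and the summit distance 14 bp. The site near *Ube2e2*, a ubiquitin-conjugating enzyme gene, had 33.4 and 33.9 in thymocytes with a CTCF fold enrichment of 4.55. At *Agbl1* it was 30.9 and 33.2, at *Filip1* 31.5 and 31.7, at Gm4840 32.4 and 32.8 and at *Clstn3* 29.9 and 31.9, with CTCF between 3.75 and 7.63. The same 6 sites were among the 8 highest over all 6 urea lists, joined by sites near *Odz2* and *Copz2*. Of these 8, *Copz2* and *Agbl1* had a thymocyte CTCF peak (11.6 and 6.10), and *Clstn3* and *Copz2* held the core, as in their sequences above. The median over all occupied sites in thymocytes was 10.1 and 9.98. The 50 sites left out of the ranking had medians of 14.1 and 13.3 in thymocytes, and of 10.4 for CTCF.

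Start-site members and the extremes of distance show the range. Within 1000 bp of a start site the strongest was *Ank1*, an ankyrin of the red cell membrane skeleton (chr8:24205782-24206315), with 29.4 for CTCF and 28.9 for the BUR, summits 5 bp apart, skin SATB1 at 27.9 and 27.3, no thymocyte CTCF peak and no thymocyte urea SATB1 peak. Next among start-site members were *Fbxo34* (15.4), *Tcfeb* (13.7) and *B3galtl* (11.7), besides 2 *Satb1* exon sites. *Fbxo34*, *Tcfeb* and *B3galtl* had low AT contents of 31.7%, 39.0% and 28.5% over the CTCF peak and thymocyte CTCF peaks of 17.5, 16.8 and 14.2. At *B3galtl* the BUR summit was 660 bp away and brain SATB1 stood at 18.5 ± 0.636 (SD, n = 2 lists). Coincident summits were found, among others, near *Cartpt* (CTCF 18.2) and in *Gm525* (16.4), both with skin SATB1 peaks in both replicates. The farthest pairs, in *Tcte2* and near *Pgk2*, *Stmn2* and *Zfp825*, were 1708, 1246, 1133 and 1133 bp apart. *Krt28*, a keratin gene of hair follicles, had a core site 4858 bp away (chr11:99240836-99241287) with peaks in all 6 urea lists, 20.3 and 17.8 in brain, 15.2 and 15.6 in thymocytes and 10.1 and 8.39 in skin, and a thymocyte CTCF peak of 12.3.

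The 50 sites in the 57 regions shared by all 11 lists had a median CTCF fold enrichment of 10.4, and 25 of them had multi-copy summits and 18 the satellite word. Leaving such regions out lowered mean occupancy to 27.2% in brain, 13.6% in thymocytes and 18.1% in skin.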

How the data were processed

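The authors aligned reads to mm9 (Bowtie2 2.3.1), retained uniquely placed ones, and ran the peak caller MACS2 2.2.7 sample by sample. The sources used here do not give whether the caller had an input library. The lists have no header; in this peak format each deposited list holds positions, a display score (not used), the fold enrichment as a ratio to local background, −log10 p-values (not used), −log10 q-values and the summit. The fold enrichment is not scaled between samples.

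Peaks on chromosomes 1 to 19 and X were compared by an overlap of at least 1 bp with Python 3.11.15, numpy 2.4.6, pandas 2.3.3, scipy 1.17.1 and numba 0.67.0, and plotted with matplotlib 3.10.9. The reference was NCBIM37 with GENCODE vM1 genes. Copy number is the median count of 31-base words at the summit in NCBIM37. Replicate numbers are those of the labels. Two-sided exact tests were run over lists, with a threshold of 0.05, and checked on simulated data. No pairing of replicates across tissues is given in the labels.

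The sites, lists and tests were chosen with earlier results of these data known. Named sites were, outside regions shared by all 11 lists, the 6 highest in skin CTCF among recurrent sites, the 6 highest in thymocyte urea SATB1, the 8 highest over all urea lists, the 6 highest CTCF sites at start sites, the 4 nearest and 4 farthest summit pairs, and up to 2 sites per gene list, of which some are named. Alternatives were other overlaps, thresholds, windows and list sizes, regions or strong peaks left out, and each replicate left out. *Satb1*-/- samples, inputs and a second thymocyte CTCF sample were not analysed here. A few named sites are not reported here.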

Additional observations from a re-analysis of the deposited data

Results flagged for a closer look

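SATB1 occupancy of BURs under CTCF peaks, relative to other BURs, had opposite signs between tissues with the full lists. The mean log2 ratio of BURs under CTCF peaks to other BURs was -0.10 in brain, below 0 in both lists, and 0.49 in thymocytes and 2.60 in skin, above 0 in both lists each (exact permutation test over tissues, p = 0.0667, the smallest possible). With lists of equal size both brain lists were above 0 (0.47 and 0.54). Without multi-copy, *Satb1*, repeat and all-list sites they were -0.17 and -0.14, thymocytes had 0.14 and 0.33, and skin had 1.87 and 1.89. With both changes together the brain lists had -0.10 and 0.0052.

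The relation to thymocyte CTCF also changed sign. The mean log2 ratio of SATB1 occupancy at recurrent sites to that at the others was 0.75 in brain and 1.43 in thymocytes, and -0.29 in skin, with both lists of each tissue on the same side. Without the 50 sites in regions shared by all 11 lists, which are recurrent and occupied by definition, these means were 0.50, 0.95 and -1.11. The difference between tissues in this ratio was not tested.

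Outside chromosomes 1 to 19 and X, 141 of 306 skin CTCF peaks (46.1%) shared a base with a BUR, against 3.88% on those chromosomes. These peaks were not analysed further here.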

How the results depend on the processing

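Of 152 recomputed values, 97 kept their direction and their side of the threshold or stayed within the replicate spread or interval, which says nothing of the tissue difference, whose test cannot pass the threshold and whose order also changed with the stricter overlaps, without the top 1% of peaks and without multi-copy sites, alone or together with the others. Cutting the urea SATB1 lists to equal size reversed the order of tissues, from 12.9 percentage points between brain and thymocytes to 15.2 between skin and brain, with occupancies of 6.27% in brain and 7.63% in thymocytes, and raised the mean log2 ratio of BURs under CTCF peaks to other BURs to 1.37 (exact sign-flip test, p = 0.0312). With multi-copy, *Satb1*, repeat and all-list sites also left out this was 0.70 (exact sign-flip test, p = 0.0938). The cause was not tested beyond the shorter lists themselves. With the replicate block (labels permuted within replicate number) the tissue difference of 12.9 points had p = 0.167, the smallest that this permutation allows, and the block changed no other call; the numbers name samples and no pairing is stated. Requiring an overlap of 50% of the shorter peak left 600 sites, with 38.7% in thymocyte CTCF, a summit distance of 141 bp, 63.1% AT, 22.7% with the core, and SATB1 at 33.7% in brain, 24.3% in thymocytes, 36.8% in skin and 45.6% in standard lists. With the CTCF summit inside the BUR, 594 sites had 35.5%, 135 bp, 62.4% and 21.2%, and SATB1 at 22.0%, 36.7% and 45.6% in thymocytes, skin and standard lists. Counting a SATB1 peak only by a summit in the shared bases gave 13.3%, 10.3%, 17.2% and 22.7% in brain, thymocytes, skin and standard lists, and by a summit in the CTCF peak 14.1%, 11.0% and 19.5% in brain, thymocytes and skin. Without regions shared by all 11 lists, brain, thymocytes and skin had 27.2%, 13.6% and 18.1%. Without the top 1% of peaks the distance was 244.5 bp, and thymocytes had 16.3% and skin 16.2%. At a −log10 q of at least 5 thymocytes had 17.5%. AT content was 58.0% in 200 bp at the CTCF summit and 63.8% over shared bases. Within 2500 bp of a start site lay 10.2% of sites, and 23.8% had the core in windows of 100 bp. Chosen after seeing the data, leaving out multi-copy sites gave 16.6%, 16.5% and 29.9% in thymocytes, skin and standard lists and 2.85% near start sites. Leaving out *Satb1* gave 21.0% in skin. Leaving out both with repeat and all-list sites gave 14.6%, 12.6% and 27.6%, with 2.79% near start sites and 32.3% with the core. Without 1 list at a time, the log2 ratio to other skin CTCF peaks was 4.18 to 4.70 (exact sign-flip test, p = 0.0625, the smallest that 5 lists allow). The ratio to other BURs was 0.67 to 1.22, the tissue difference 11.6 to 14.2 points, and occupancy 28.9 to 31.5% in brain, 17.2 to 17.4% in thymocytes, 21.5 to 21.9% in skin and 33.6 to 40.2% in standard lists. Peak lists carry no counts, so the limit that depth sets is unknown.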

Other observations

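Seen from the SATB1 lists, CTCF-BUR sites were a small part of the peaks. They held 0.322% and 0.319% of the brain SATB1 peaks, 0.481% and 0.547% of the thymocyte urea peaks and 2.44% and 2.46% of the skin peaks. Any skin CTCF peak was touched by 0.572% and 0.556% of the brain peaks and by 11.4% and 10.5% of the skin peaks. Thymocyte CTCF peaks on BURs, chosen by the same rule, were occupied at 39.0% and 36.3% in brain, 27.9% and 27.1% in thymocytes and 20.4% and 20.2% in skin. Thymocyte CTCF peaks off BURs had 0.457% and 0.447% in skin, where other skin CTCF peaks had 3.25% and 2.86%.

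Of the 136 sites marked by SATB1 in skin alone, 74 had a single-copy summit, lay outside *Satb1* and held no telomeric units. Their median CTCF fold enrichment was 12.6 and their median summit distance 36.5 bp, and 2 were in the thymocyte CTCF list. Examples, singled out after their values were seen, were the 3 strongest, near *Gpr37l1* (36.5), near Gm17295 (35.8) and in *Pcdh15* (35.6).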
